A study of Homo sapiens with 6 samples.

Results

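The expression of 43 genes of homologous recombination and of the Fanconi anemia pathway was examined in SCC25 cells, a line from a human tongue squamous cell carcinoma, after exposure to tunicamycin (TM), an inhibitor of N-linked glycosylation that causes endoplasmic reticulum (ER) stress. The genes were listed by their function, from the ends-processing nucleases to the Fanconi proteins, with earlier results of these data known. Each gene was read from the transcript cluster that carries its symbol in the annotation of the GeneChip HTA 2.0 array, and from the cluster with the highest mean where it had several. Of the 43 genes, 37 had a cluster of their own, out of 22410 genes with such a cluster. ATRIP and RAD54B lay on clusters that also carry another gene's symbol and were kept out of the counts. BRCA2, RBBP8, FANCA and FANCD2 were not analysed here.

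Total RNA was taken from 3 cultures with TM at 5 µg mL−1 for 6 h and from 3 control cultures with the solvent DMSO at 0.1% for 6 h, which the series describes as independent biological replicates. All 6 titles name a single cell line, SCC25, and the labels name DMSO for the control cultures only. A source label of the TM samples names SCC28 instead. Values are log2 intensities as deposited, so that a difference of 1 is a doubling of the signal, and array medians lay between 5.39 and 5.52.

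The treatment was checked by 3 genes of the ER stress response. DDIT3, which encodes the stress transcription factor CHOP, read 9.04, 8.88 and 5.86 in TM replicates 1 to 3, against 6.02, 6.01 and 9.28 in control replicates 1 to 3. HERPUD1, a component of ER-associated degradation, read 12.26, 12.16 and 9.34 with TM, against 9.64, 9.48 and 12.35 in the controls. HSPA5, the ER chaperone BiP, read 13.42, 13.31 and 12.27 with TM, against 12.39, 12.27 and 13.51 in the controls. The array labelled TM replicate 3 thus lay at the level of control replicates 1 and 2, and the array labelled control replicate 3 lay at the level of TM replicates 1 and 2. Over a list of 16 ER stress genes, all 16 were higher with TM in replicates 1 and 2, and all 16 were lower with TM in replicate 3. The labels were kept, and the sources used here do not settle whether these 2 were exchanged. Had they been, each fold change, p and count over 6 arrays would mix the groups, so results are given for all 6 arrays and for the 4 arrays of replicates 1 and 2. Squamous epithelial markers (7 of 10 measured) averaged 11.61 to 11.64 with TM, against 11.59 to 11.66 in the controls. Leukocyte markers (5 of 6 measured) averaged 5.84 to 5.89 with TM, against 5.72 to 5.87 in the controls. CD68 raised that average, with a mean of 10.98 in both groups. The TM means of PTPRC, LYZ, CD3E and CD14 were 3.29, 3.49, 5.52 and 6.01. Endothelial markers averaged 5.17 to 5.20 with TM, against 5.01 to 5.06 in the controls, below the array medians, and all 4 were higher in every TM array than in any control array. Fibroblast markers (5 of 6 measured) averaged 5.99 to 6.09 with TM, against 5.97 to 6.09 in the controls, and without overlap COL1A1, COL1A2 and PDGFRB were higher with TM and LUM was lower. The part of these markers in the members' differences was not tested.

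Homologous recombination repairs a DNA double-strand break by copying an intact sister molecule. The MRE11-RAD50-NBN (MRN) complex binds the broken ends, nucleases trim them to single strands that RPA covers, the BRCA proteins load the recombinase, and nucleases finally cut the joined molecules apart. Fanconi anemia proteins detect crosslinks between DNA strands and open them for this repair, and mRNAs of many of these genes are most abundant in cells that copy their DNA.

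The members were mostly lower with TM, by small amounts. The log2 fold change (TM minus control) was below 0 for 31 and above 0 for 6 of the 37 members, with a median of -0.13 and a range of -0.35 to 0.10. Of all 67528 clusters, 26182 were below 0, and their median was 0.04. Of 18216 mRNA clusters, 7303 were below 0, and their median was 0.03. No member passed an adjusted p of 0.05 over the 6 arrays (limma, Benjamini-Hochberg over all clusters), nor did any other cluster (0%), and the smallest adjusted p of a member was 0.148, for BLM. At an unadjusted p under 0.05, 15 members were lower and 0 were higher. By that rule 5.14% of all clusters and 5.95% of mRNA clusters were lower, while 15.3% of all clusters and 17.2% of mRNA clusters were higher. With a fold change of at least 1.2 as well, 4 members were lower and 0 higher, where 1.68% of all clusters were lower and 4.24% were higher. The 4 were FANCM, DNA2, FANCL and ATR. This count moved with single arrays: it was 8 without TM replicate 3, 1 without TM replicate 2, and 2 without either control replicate 1 or control replicate 2. The share of all clusters by this rule is not given for those fits, so these moves cannot be set against it. In bulk RNA, fewer cells with a transcript and less of it per cell cannot be told apart.

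**Figure D1:**
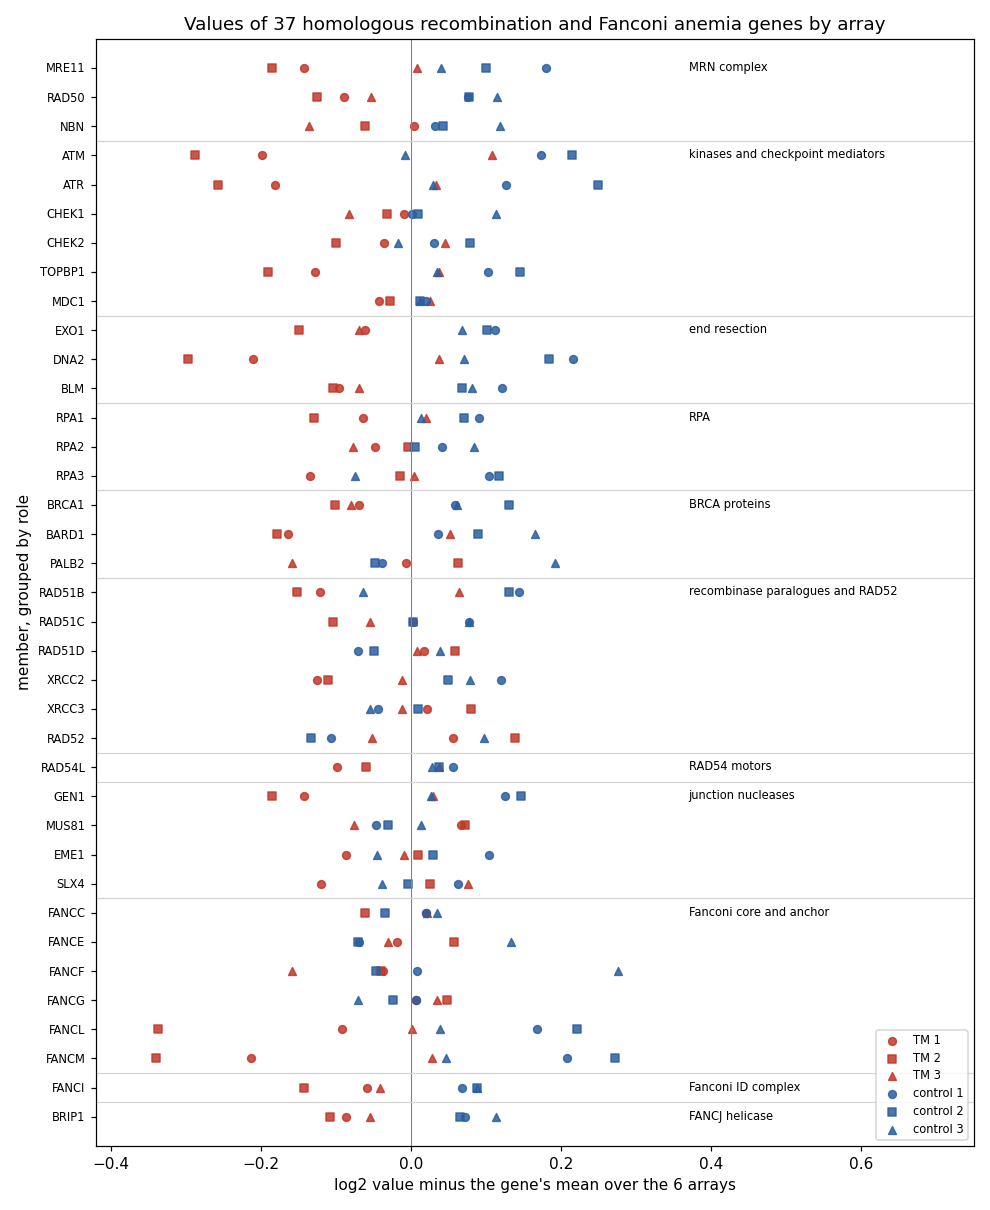
Log2 value of each of the 37 members in every array, minus the gene's own mean over the 6 arrays; red marks are TM, blue marks are control, and the shape gives the replicate number. The TM circles and squares lie left of the control circles and squares for most members, while the triangles of replicate 3 lie closer together for genes such as ATR, TOPBP1 and GEN1.

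All 3 TM arrays lay below all 3 control arrays in 14 of the 37 members, a pattern that 7.49% of all clusters and 11.3% of mRNA clusters showed. The count was 24 without TM replicate 3, 23 without control replicate 3 and 28 with median centring, where 15.6%, 15% and 18.4% of all clusters showed the pattern. The gap between the groups over 6 arrays was narrow, between 0.01 and 0.14. The opposite pattern, with TM above control, was seen in 20.5% of all clusters and in 1 member, FANCG, a subunit of the Fanconi core complex. FANCG read 7.43, 7.47 and 7.46 with TM, against 7.43, 7.40 and 7.35 in the controls, a log2 fold change of 0.06 ± 0.05 (SE). Set against the control array of the same number, TM was lower in 30 members in replicate 1, in 28 in replicate 2 and in 23 in replicate 3. Of all 67528 clusters, 31315, 26819 and 23396 were lower in replicates 1, 2 and 3. TM was lower in all 3 for 17 members, where 11.1% of all clusters and 15% of mRNA clusters were lower in all 3.

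Promoter windows, 250 bases before to 50 bases after a transcription start, were taken from RefSeq (GRCh38.p14) for 32 of the 37 members, and searched on both strands for elements known from cell cycle promoters. The CCAAT box lay in the windows of 16 of 32 members, and in 45.5% of their 44 windows, against 34.6% of all 35116 windows. The element TTTGAA was found for 4 members, in 9.09% of their windows, against 15.2% of all windows. The 3 octamers of the kind E2F factors bind, TTTCCCGC and also TTTGGCGC and also TTTCGCGC, were looked for singly, and no element contains another. At least 1 of the 3 lay in the windows of 5 of 32 members, in 11.4% of their windows, against 2.74% of all windows. These 5 were EXO1, GEN1, TOPBP1, XRCC2 and FANCC. All but FANCC were among the 15 of 37 members with an unadjusted p under 0.05, of which DNA2 and FANCI had no window to search. With only 5 genes, a link between octamer and change was not tested. The stretches are shown because they hold an octamer of this kind, in capitals, and run 5′ to 3′ on the coding strand, from 150 bases before to 30 bases after the start.
EXO1 (chr1:241848054-241848233, plus strand): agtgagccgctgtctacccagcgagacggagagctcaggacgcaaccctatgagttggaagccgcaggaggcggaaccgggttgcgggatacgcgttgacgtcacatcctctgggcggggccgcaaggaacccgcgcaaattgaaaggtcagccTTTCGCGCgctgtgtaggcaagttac
GEN1 (chr2:17753719-17753898, plus strand): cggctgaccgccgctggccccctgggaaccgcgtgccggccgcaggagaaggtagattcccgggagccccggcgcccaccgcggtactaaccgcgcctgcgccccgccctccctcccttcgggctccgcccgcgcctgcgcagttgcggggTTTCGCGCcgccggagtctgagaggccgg
TOPBP1 (chr3:133661912-133662091, minus strand): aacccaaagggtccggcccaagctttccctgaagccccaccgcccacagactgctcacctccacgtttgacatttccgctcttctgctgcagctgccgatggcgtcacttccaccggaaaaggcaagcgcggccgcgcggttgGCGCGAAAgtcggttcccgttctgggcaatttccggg
XRCC2 (chr7:152676112-152676291, minus strand): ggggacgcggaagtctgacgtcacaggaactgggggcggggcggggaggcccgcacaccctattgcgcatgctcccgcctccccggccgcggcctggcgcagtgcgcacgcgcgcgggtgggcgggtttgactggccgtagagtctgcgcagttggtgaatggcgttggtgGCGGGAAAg
FANCC (chr9:95317680-95317859, minus strand): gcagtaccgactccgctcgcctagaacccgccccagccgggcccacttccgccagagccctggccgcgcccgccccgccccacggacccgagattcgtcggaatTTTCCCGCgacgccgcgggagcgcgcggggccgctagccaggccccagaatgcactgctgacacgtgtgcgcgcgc
The octamer lay at bases 5 to 12 after the start in EXO1 and at bases 2 to 9 in GEN1. It stood as the reverse complement across the start of TOPBP1 (-7 to 1) and at bases 22 to 29 of XRCC2, and upstream (-46 to -39) in FANCC. The FANCC window held another, TTTCGCGC as the reverse complement (-172 to -165), ahead of the stretch shown. A match of letters is a description of the window and not a binding site. FANCC, which joins the Fanconi core complex, read 7.80, 7.72 and 7.80 with TM, against 7.80, 7.75 and 7.82 in the controls, and its log2 fold change was -0.01 ± 0.05 (SE).

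The 3 subunits of the MRN complex were each lower in all TM arrays than in any control array. MRE11, the nuclease of the complex, read 6.95, 6.91 and 7.10 with TM, against 7.27, 7.19 and 7.13 in the controls. Its log2 fold change was -0.21 ± 0.07 (SE, limma, adjusted p = 0.181). Most of that difference came from replicates 1 and 2, since TM replicate 3 was only 0.03 below control replicate 3. RAD50, the ATPase that tethers the ends, read 8.35, 8.32 and 8.39 with TM, against 8.52, 8.52 and 8.56 in the controls, a log2 fold change of -0.18 ± 0.05 (adjusted p = 0.151) with little spread in either group. NBN, which recruits the kinase ATM, read 8.22, 8.16 and 8.08 with TM, against 8.25, 8.26 and 8.34 in the controls, a log2 fold change of -0.13 ± 0.06 (adjusted p = 0.262). For NBN the largest distance was within replicate 3. The difference was -0.25 there, and -0.03 and -0.10 in replicates 1 and 2.

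The kinases that signal breaks split along the replicates. ATM, which responds to double-strand breaks, read 7.40, 7.31 and 7.70 with TM, against 7.77, 7.81 and 7.59 in the controls. The groups overlapped, since TM replicate 3 lay above control replicate 3, and the log2 fold change was -0.25 ± 0.11 (SE, adjusted p = 0.263). In replicates 1 and 2 alone it was -0.44, with an adjusted p of 0.0527. ATR, which responds to RPA-coated single strands, read 7.56, 7.49 and 7.78 with TM, against 7.87, 8.00 and 7.78 in the controls. Both groups met at 7.78 in replicate 3, and the log2 fold change was -0.27 ± 0.09 (adjusted p = 0.192), or -0.41 in replicates 1 and 2 (adjusted p = 0.0633). TOPBP1, the activator of ATR, had the same arrangement at 8.83, 8.76 and 8.99 with TM, against 9.06, 9.10 and 8.99 in the controls (log2 fold change -0.19 ± 0.07, adjusted p = 0.216). The effector kinases had log2 fold changes nearer to 0. CHEK1, which acts below ATR, read 8.56, 8.54 and 8.49 with TM, against 8.58, 8.58 and 8.69 in the controls, without overlap but with a log2 fold change of only -0.08 ± 0.05 (adjusted p = 0.417). CHEK2, which acts below ATM, read 6.82, 6.76 and 6.90 with TM, against 6.89, 6.93 and 6.84 in the controls, a log2 fold change of -0.06 ± 0.06 (adjusted p = 0.571) with overlapping groups. MDC1, the reader of marked chromatin at breaks, differed by -0.03 (adjusted p = 0.740), and 8 clusters carry its symbol.

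The 3 measured genes of long-range end resection were all lower with TM without overlap, and all had an unadjusted p under 0.05. EXO1, an exonuclease, read 8.75, 8.66 and 8.74 with TM, against 8.93, 8.92 and 8.88 in the controls. Its log2 fold change was -0.19 ± 0.05 (SE, limma, adjusted p = 0.151). BLM, the helicase mutated in Bloom syndrome, read 7.99, 7.99 and 8.02 with TM, against 8.21, 8.16 and 8.17 in the controls, a log2 fold change of -0.18 ± 0.05 (adjusted p = 0.148). For EXO1 and BLM the distance by label was also seen in replicate 3, at -0.14 and -0.15, where the ER stress genes had turned. DNA2, a nuclease and helicase that works with BLM, read 7.29, 7.20 and 7.54 with TM, against 7.71, 7.68 and 7.57 in the controls. Its log2 fold change was -0.31 ± 0.09 (adjusted p = 0.167) over 6 arrays, 1.24-fold lower, and -0.45 in replicates 1 and 2 (adjusted p = 0.0507). TM replicate 3 and control replicate 3 of DNA2 were 0.03 apart, so the groups were barely separated. The RPA subunits that cover the resected strand had log2 fold changes of -0.12 for RPA1, -0.09 for RPA2 and -0.10 for RPA3, and none of the 3 had an unadjusted p under 0.05.

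BRCA1, the ubiquitin ligase that steers breaks to recombination, read 8.20, 8.17 and 8.19 with TM, against 8.33, 8.40 and 8.33 in the controls. The groups did not overlap, the TM arrays spread over only 0.03, and the log2 fold change was -0.17 ± 0.05 (SE, limma, adjusted p = 0.160). BARD1, the partner that BRCA1 needs for its activity, read 7.81, 7.80 and 8.03 with TM, against 8.01, 8.07 and 8.14 in the controls (log2 fold change -0.19 ± 0.08, adjusted p = 0.228). PALB2, which bridges BRCA1 to BRCA2, went against its partners in replicates 1 and 2. It read 8.22, 8.28 and 8.06 with TM, against 8.18, 8.17 and 8.41 in the controls, so that its log2 fold change of -0.07 ± 0.09 (adjusted p = 0.683) rested on replicate 3.

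Among the 5 paralogues that support the recombinase, XRCC2 was the only one with an unadjusted p under 0.05. It read 7.91, 7.93 and 8.03 with TM, against 8.16, 8.09 and 8.12 in the controls, without overlap, and the log2 fold change was -0.17 ± 0.05 (SE, limma, adjusted p = 0.181). RAD51B and RAD51C differed by -0.14 and -0.10, while RAD51D and XRCC3 each differed by 0.06. RAD52, which anneals single strands, had the highest log2 fold change of the members at 0.10 ± 0.08 (adjusted p = 0.532). It read 7.35, 7.43 and 7.24 with TM, against 7.19, 7.16 and 7.39 in the controls, higher with TM in replicates 1 and 2 and lower in replicate 3. The motor protein gene RAD54L differed by -0.08. Of the nucleases that cut joined molecules, GEN1 read 8.30, 8.26 and 8.47 with TM, against 8.57, 8.59 and 8.47 in the controls (log2 fold change -0.20 ± 0.07, adjusted p = 0.203). MUS81, its partner EME1 and the scaffold SLX4 differed by 0.04, -0.06 and -0.01.

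The Fanconi genes held the member with the largest distance and members with hardly any. FANCM, the translocase that anchors the core complex on DNA, read 6.92, 6.79 and 7.16 with TM, against 7.34, 7.40 and 7.18 in the controls. Its log2 fold change over 6 arrays was -0.35 ± 0.11 (SE, limma, adjusted p = 0.168), 1.28-fold lower, and the replicate 3 arrays were 0.02 apart. FANCL, the ubiquitin ligase subunit, read 7.22, 6.97 and 7.31 with TM, against 7.48, 7.53 and 7.35 in the controls, a log2 fold change of -0.28 ± 0.10 (adjusted p = 0.191), and TM replicate 2 stood below the other TM arrays. FANCI, a target of that ligase, read 9.22, 9.14 and 9.24 with TM, against 9.35, 9.37 and 9.37 in the controls, a log2 fold change of -0.16 ± 0.05 (adjusted p = 0.172). BRIP1, the FANCJ helicase that binds BRCA1, read 8.29, 8.27 and 8.32 with TM, against 8.45, 8.44 and 8.49 in the controls, a log2 fold change of -0.17 ± 0.05 (adjusted p = 0.157). For FANCI and BRIP1 the groups as labelled stood apart in each replicate, also in replicate 3, where the ER stress genes had turned. The core subunit FANCF differed almost solely through replicate 3. FANCF read 7.88, 7.88 and 7.76 with TM, against 7.93, 7.88 and 8.20 in the controls (log2 fold change -0.16 ± 0.09, adjusted p = 0.367). FANCE, which links the core to its targets, differed by 0.00 (adjusted p = 0.976).

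**Figure D2:**
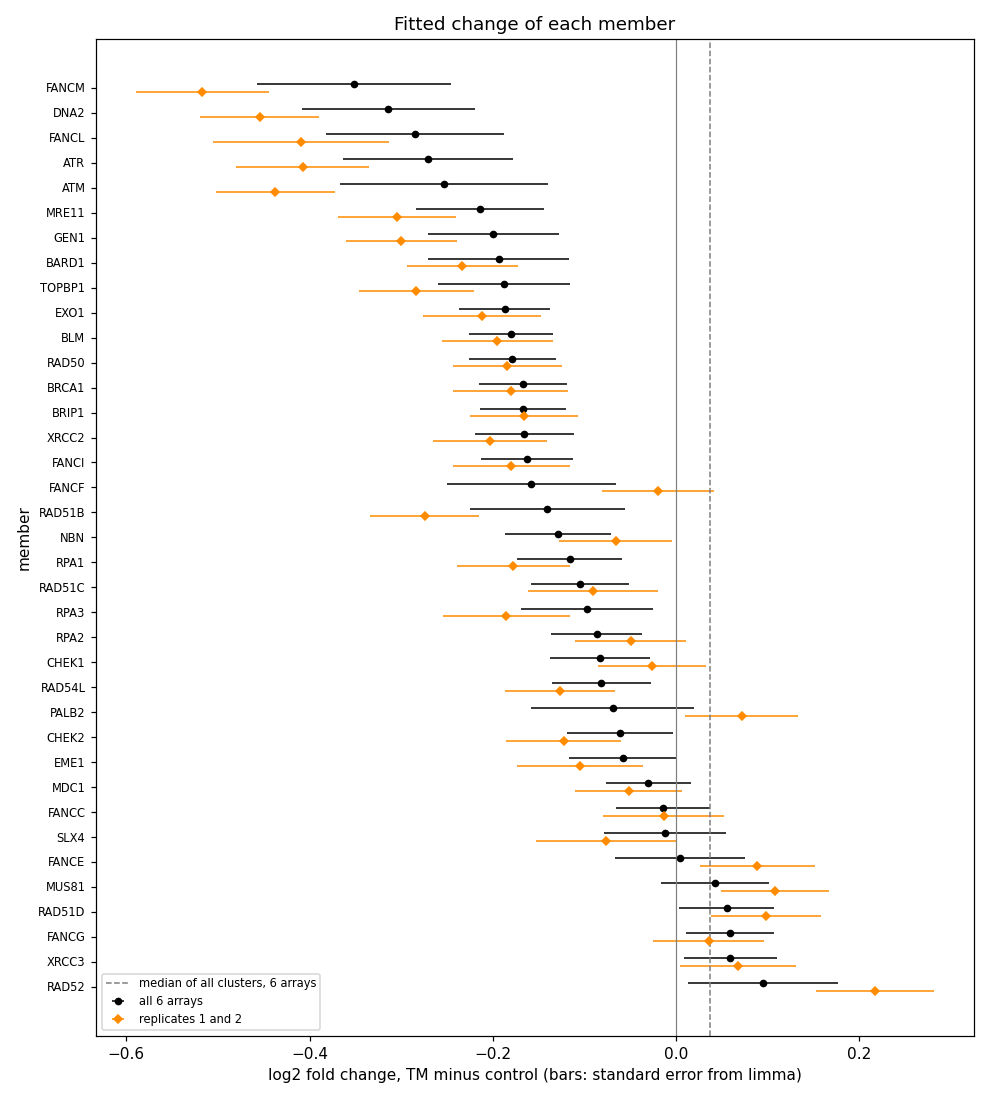
Log2 fold change (TM minus control, x axis) of each of the 37 members, over all 6 arrays (black circles) and over the 4 arrays of replicates 1 and 2 (orange diamonds), with standard errors from limma as bars; the dashed line is the median of all clusters, 0.04. FANCM is lowest at -0.35 over 6 arrays and -0.52 over replicates 1 and 2, and RAD52 is highest.

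Within replicates 1 and 2, where the ER stress genes followed the labels, the median log2 fold change of the members was -0.17. FANCM fell by 0.52 ± 0.07 (SE, limma, 4 arrays, adjusted p = 0.0497), the only member below 0.05, and 0 members rose by that rule. Of all clusters, 0.675% fell and 0.546% rose by the same rule. The count of 1 depended on the processing. It was 10 when the upper part of clusters by mean was tested alone (where 8.5% of clusters fell), 9 with trend and robust variance estimates (4.01% fell) and 4 with median centring (1.94% fell). The call for FANCM was a narrow one. It was lost without any 1 of the 4 arrays (adjusted p = 0.0788 to 0.201, where the lone array was taken to vary like the others) and after quantile normalization (adjusted p = 0.0564). In 10 members the adjusted p lay under 0.1 with TM lower, where 5.94% of all clusters were lower by that limit. At an unadjusted p under 0.05, 19 members were lower in these 4 arrays, where 12.1% of all clusters were, and 1 member, RAD52, was higher (log2 fold change 0.22, adjusted p = 0.116), where 14.8% of all clusters were.

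The order of the groups turned in replicate 3 for some members, as it did for the ER stress genes and for a share of all clusters. Of the 37, 11 were lower with TM in replicates 1 and 2 but not in replicate 3, where 17.7% of all clusters were. Higher with TM in replicates 1 and 2 but not in replicate 3 were 5 members, near the share of all clusters, 13%. TM replicate 3 lay below both control replicates 1 and 2 in 27 members, and in 19697 of all 67528 clusters. Control replicate 3 lay above both TM replicates 1 and 2 in 29 members, and in 19066 of all clusters. In those members the difference went with the labels and not with the level of the ER stress genes. By more than 0.05 in replicate 3, ATM, CHEK2, RPA3 and RAD51B turned to higher with TM, at 0.12, 0.06, 0.08 and 0.13. By the same measure PALB2, RAD52, MUS81 and FANCE turned to lower with TM, at -0.35, -0.15, -0.09 and -0.16. Of the members described above, RAD50, EXO1, BLM, BRCA1, BARD1, XRCC2, FANCI and BRIP1 had TM replicate 3 below control replicate 3 by 0.09 to 0.17. MRE11, ATR, TOPBP1, DNA2, GEN1, FANCL and FANCM had replicate 3 arrays within 0.05 of each other. These 15 had been set apart by a p that itself uses replicate 3, so their values there are a description. Whether arrays of the same number share more than that number is not settled, and these distances are between single arrays.

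**Figure D3:**
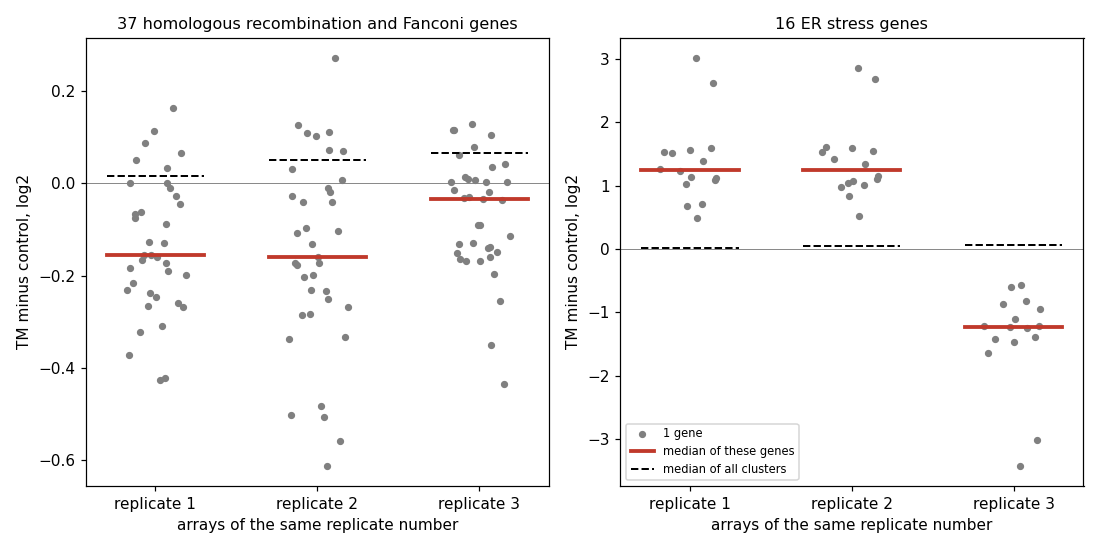
TM minus control (log2) between arrays of the same replicate number, for the 37 members (left) and for 16 ER stress genes (right); each point is a gene, red bars are medians of these genes and dashed bars are medians of all clusters. The members' medians were -0.16, -0.16 and -0.03 for replicates 1, 2 and 3, while those of the ER stress genes were 1.24, 1.24 and -1.23.

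Averaged over the 37 members, the log2 value was 7.84, 7.82 and 7.90 in TM replicates 1 to 3, against 7.98, 7.97 and 7.96 in control replicates 1 to 3. Every TM array lay below every control array in this average, with TM replicate 3 nearest to the controls. The scaling of the arrays bears on these counts. With each array centred on its median, 24 members were lower and 0 higher at an unadjusted p under 0.05, where 14.2% of all clusters were lower, and with quantile normalization 14 were lower and 0 higher, where 7.5% of all clusters were lower.

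Related genes were set beside the members as counts and medians, with no test of the difference between lists. At an unadjusted p under 0.05, 5.14% of all clusters were lower and 15.3% were higher. Of 37 other genes of recombination and the Fanconi pathway, 7 were lower and 1 was higher at that p, with a median log2 fold change of -0.05. WRN, the helicase mutated in Werner syndrome, had the smallest p, with 7.04, 6.99 and 7.07 with TM, against 7.28, 7.28 and 7.35 in the controls (log2 fold change -0.27 ± 0.05, limma, adjusted p = 0.143). CLSPN, the mediator between ATR and CHEK1, differed by -0.21 ± 0.05 (adjusted p = 0.147), and RAD17, the clamp loader of the checkpoint, by -0.23 ± 0.07 (adjusted p = 0.171). The 3 with the smallest p among the higher ones were FAAP100, EME2 and SWSAP1, with log2 fold changes of 0.12, 0.12 and 0.11. Of 40 measured DNA replication genes, 12 were lower and 0 higher at that p, with a median of -0.11. Of 13 measured end joining genes, which serve the repair route that needs no sister molecule, 0 were lower and 1 was higher, with a median of -0.03. Counts that small among 13 genes cannot be told from the shares of all clusters. Of 19 measured mitosis genes, 5 were lower and 0 higher, with a median of -0.14, and their medians within replicates 1, 2 and 3 were -0.19, -0.19 and 0.01. All TM arrays lay below all control arrays in 20 DNA replication genes, 11 other recombination genes, 5 mitosis genes and 1 end joining gene. By that pattern 14 members and 7.49% of all clusters were lower. The opposite pattern held for 1, 3, 0 and 1 genes of these 4 lists, for 1 member and for 20.5% of all clusters. The part of DNA replication and mitosis genes in the members' differences was not tested.

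**Figure D4:**
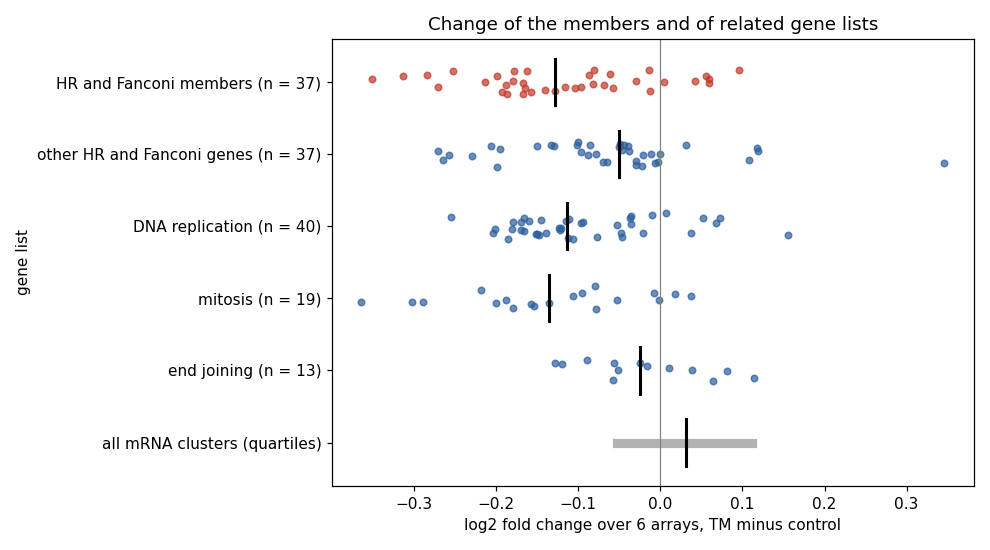
Log2 fold change over 6 arrays (TM minus control, x axis) of the 37 members (red), of the genes of 4 related lists (blue) and of all mRNA clusters (grey bar, lower to upper quartile); black bars are medians. The members' median of -0.13 and the mitosis genes' median of -0.14 lie left of the mRNA median of 0.03, and that of the end joining genes, -0.03, lies nearer to it.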

How the data were processed

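Total RNA of SCC25 cells was hybridised to GeneChip HTA 2.0 arrays (3 TM and 3 control). The authors deposited log2 values, summarised and normalized, 1 per transcript cluster and array. The submitters' processing notes name MAS5. How the background was corrected is not given in the sources used here, nor is the genome build. Every sample column was matched to a label. Symbols came from the array annotation (23781 clusters with 1 symbol, 1543 with several, 42204 with none), and gene classes from the RefSeq table of GRCh38.p14.

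Values were taken as deposited. TM and control were compared with limma 3.58.1 in R 4.3.3 (lmFit and eBayes, two-sided, Benjamini-Hochberg over 67528 clusters, threshold 0.05), over 6 arrays and over the 4 arrays of replicates 1 and 2. The fit was tested on simulated data with the spread of replicates 1 and 2. With 3 arrays per group it recovered 8% of log2 changes of 0.25 and 94% of 0.5. With 2 arrays per group it recovered 0% and 58%. No low-value filter was used. Clusters at an unadjusted p under 0.05 were also counted with a fold change of at least 1.2. Python 3.11.15 with matplotlib 3.10.9 made the plots.

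The members and gene lists were chosen with earlier results of these data known. Values by array were set out for MRE11, RAD50, NBN, ATM, ATR, CHEK1, CHEK2 and BRCA1, the 10 members of smallest p, the 5 of largest absolute change and members called in replicates 1 and 2. ER stress genes DDIT3, HERPUD1 and HSPA5 and, of other recombination genes, the 3 of smallest p in each direction were added. Other members were named after their values were seen. The number of arrays limits the precision. Alternatives were quantile normalization, median centring, the upper part of clusters by mean, the mean of a gene's clusters, eBayes with trend and robust, no moderation, a replicate block, arrays left out in turn, and no fold threshold.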

Additional observations from a re-analysis of the deposited data

How the results depend on the processing

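Over 6 arrays, no member was called in any alternative that kept all 6 or left out 1 of them, and without both replicate 3 arrays the count was 1. With the fold threshold of 1.2 added to an unadjusted p under 0.05, the count of lower members was 4, and it was 8 with median centring, 1 without moderation, 2 with a replicate block, 9 without both replicate 3 arrays, 15 with no fold threshold, and 1 to 8 with 1 array left out. The higher count was 0 throughout. The count of members with all TM arrays below all control arrays was 14, and it was 28 with median centring, 26 without both replicate 3 arrays, and 14 to 24 with 1 array left out (24 without TM replicate 3 and 23 without control replicate 3). Fewer arrays make that pattern easier to meet for any cluster. Apart from the shares of all clusters given above, these moved counts have no such share beside them. The members' median of -0.13 became -0.20 with median centring, -0.17 without both replicate 3 arrays, and -0.14 to -0.11 with 1 array left out. The count of members lower in replicates 1 and 2 was 1, and it was 0 with quantile normalization, 4 with median centring, 10 over the upper part of clusters by mean, 9 with trend and robust, 0 without moderation, 0 with a replicate block, and 0 with any 1 array left out. The median of all clusters was 0.04 as deposited, 0.01 with quantile normalization and -0.03 with median centring. The cause of these moves was not tested.

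With the replicate block, FANCM in replicates 1 and 2 had an adjusted p of 0.108, and without moderation 0.272. Whether arrays of the same replicate number share more than that number is not settled. Deviations from the group means correlated between TM and control arrays of the same number at -0.18, -0.31 and -0.53. Of the 3 TM arrays, 0 correlated best with the control array of its number. The ER stress genes turned in replicate 3, so their own deviations had opposite signs in arrays of the same number. That holds whether or not cultures were paired. How far such genes set the correlations over all clusters was not tested. These correlations thus cannot decide the question. Of 235 values of single genes under the alternatives, 227 kept their side of the threshold, 7 lost it, 1 gained it and 0 reversed. The 7 and the 1 were FANCM. No cluster passed the threshold over all arrays, so values there had no call to lose. Their staying uncalled is thus no sign of robustness. The only call that could be lost was that of FANCM in replicates 1 and 2, and the 7 are its losses. Among the 7 were the fits that left 1 array in a group. The call was kept with median centring, the upper part of clusters by mean, trend and robust, and the mean of a gene's clusters. Adding the clusters shared by ATRIP and RAD54B, chosen after seeing the data, gave 5 members lower with the fold threshold, 15 without overlap and a median of -0.13.

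The number of arrays limits the precision.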

Other observations

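Of the 37 other recombination and Fanconi genes, which are no members, 1 rose and 1 fell in replicates 1 and 2 (limma, adjusted p under 0.05). They were chosen after their values were seen. By the same rule 1 DNA replication gene, CDC6, rose and 1 mitosis gene, CDK1, fell. Of all clusters, 0.546% rose and 0.675% fell. RAD9A, a subunit of the checkpoint clamp, read 8.97, 8.84 and 8.25 with TM, against 8.08, 8.04 and 8.91 in the controls. It rose by 0.85 on the log2 scale in replicates 1 and 2 (limma, adjusted p = 0.0237), and over 6 arrays the log2 fold change was 0.35 (adjusted p = 0.499), with the order turned in replicate 3. POLQ, the polymerase of an error-prone end joining route, read 7.68, 7.57 and 8.16 with TM, against 8.19, 8.22 and 7.79 in the controls. It fell by 0.58 in replicates 1 and 2 (adjusted p = 0.0382), and over 6 arrays the log2 fold change was -0.26 (adjusted p = 0.428), with the order turned in replicate 3. The cluster that RAD54B shares with FSBP read 6.80, 6.57 and 7.01 with TM, against 7.12, 7.18 and 7.03 in the controls (log2 fold change -0.32, adjusted p = 0.195). The cluster that ATRIP shares with TREX1 differed by 0.01.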
